A study of Mus musculus with 6 samples.

Results

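Histone lysine methyltransferases and demethylases were described in mouse embryonic fibroblasts without Ezh2, the H3K27 methyltransferase of Polycomb repressive complex 2 (PRC2). The genes were taken from a list of 40, 25 methyltransferases (writers) and 15 demethylases (erasers), out of 21887 protein-coding genes on the mouse chromosomes. Subunits of PRC2 were not in the list. All 40 were placed on mm10 by their RefSeq coordinates, and each was set against the accessible intervals at its ends, inside it and within 50 kb of it.

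Accessible chromatin had been mapped by ATAC-seq, which reads out where a loaded transposase can reach the DNA, here on whole cells. The design had 3 groups of 2 samples, all of 1 line of mouse embryonic fibroblasts immortalised with c-myc, called line A, with C2 in the sample titles. The groups were wild-type cells, Ezh2 -/- cells, and Ezh2 -/- cells that received Ezh2 again from the retrovirus pMSCV-Ezh2, and every group carries the c-myc immortalisation. The values below come from the single interval list of the Ezh2 -/- cells. The wild-type and the rescue group were not analysed here and nothing below compares genotypes. Values for single replicates are not in the list, and neither an error over replicates nor a test between samples can be given. As the cells are 1 line, differences between lines are not covered either.

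Lysine methylation marks chromatin according to the residue that carries it. Methylation of lysine 4 of histone H3 (H3K4) marks active promoters and enhancers, that of H3K36 and H3K79 marks transcribed gene bodies, and that of H3K9 marks heterochromatin and silenced genes. H3K27 methylation is the product of PRC2. Most writers carry a SET domain, with Dot1l as the exception. Erasers are either flavin-dependent amine oxidases (Kdm1a and Kdm1b) or dioxygenases with a Jumonji (JmjC) domain.

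The list held 21835 intervals from 19215 called regions. Each called region has a total signal, the area under its coverage, and a maximum signal, the height of that coverage, both in the authors' unit. A total signal grows with the width of a region and a maximum does not. The lowest total signal in the list was 15316, and the median called region had a total of 29082 and a maximum of 27. Of 14 fibroblast genes, 13 had an interval at a gene end (Thy1 did not), against 1 of 12 defining genes of other cell types (Apob). Ezh2 itself had one, with a maximum of 61, which does not check the genotype because the sources used here do not give the deleted part.

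Sequences before the transcription start are shown for 7 genes, because CpG content is described further on. Of 31 starts with an interval 29 were rich in CpG dinucleotides, and so were 30 of all 34 starts. Over all genes 7344 of 9824 starts with an interval were CpG-rich. Of 3 starts without an interval 2 held no CpG. The start of Smyd5 and the inner start of Prdm9, neither shown, had an interval without being CpG-rich. The sequences are the 250 bases before a RefSeq start, 5′ to 3′ on the strand of the gene, from the RefSeq table on GRCm38.p6, the assembly behind mm10. Capitals mark CpG dinucleotides. Of the 40 genes, 26 matched that table, with 34 starts. Prdm9, Kdm4a, Kmt2c and Kdm4c had the highest maximum signals at a start. Kdm4c and Kmt2d had no interval at either end of the gene. Prdm16 and the inner start of Kdm3a were added after their values had been seen, as starts with no interval.
Prdm9, outer start, chr17:15564355-15564604, minus strand, interval present: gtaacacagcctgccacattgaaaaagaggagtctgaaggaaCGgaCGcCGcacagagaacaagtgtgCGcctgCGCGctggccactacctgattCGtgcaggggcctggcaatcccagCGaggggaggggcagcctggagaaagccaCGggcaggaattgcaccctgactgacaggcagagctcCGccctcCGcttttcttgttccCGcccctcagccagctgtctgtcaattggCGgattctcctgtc
Kdm4a, chr4:118180044-118180293, minus strand, interval present: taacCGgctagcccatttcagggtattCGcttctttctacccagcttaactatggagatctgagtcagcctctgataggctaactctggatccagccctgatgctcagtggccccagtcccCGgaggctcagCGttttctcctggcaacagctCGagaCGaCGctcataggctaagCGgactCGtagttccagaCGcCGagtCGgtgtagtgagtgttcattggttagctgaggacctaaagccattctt
Kmt2c, chr5:25498784-25499033, minus strand, interval present: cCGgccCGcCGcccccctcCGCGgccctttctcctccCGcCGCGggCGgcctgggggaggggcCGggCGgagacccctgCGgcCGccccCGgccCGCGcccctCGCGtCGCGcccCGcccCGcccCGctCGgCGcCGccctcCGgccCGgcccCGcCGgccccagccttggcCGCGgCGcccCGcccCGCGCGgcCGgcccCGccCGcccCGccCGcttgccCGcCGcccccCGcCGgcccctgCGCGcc
Kdm4c, outer start, chr4:74242247-74242496, plus strand, no interval: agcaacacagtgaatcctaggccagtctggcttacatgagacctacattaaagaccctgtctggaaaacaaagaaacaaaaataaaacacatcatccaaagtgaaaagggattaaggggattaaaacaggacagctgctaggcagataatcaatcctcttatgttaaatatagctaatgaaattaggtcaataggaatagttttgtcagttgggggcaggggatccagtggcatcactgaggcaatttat
Kdm4c, inner start, chr4:74251629-74251878, plus strand, interval present: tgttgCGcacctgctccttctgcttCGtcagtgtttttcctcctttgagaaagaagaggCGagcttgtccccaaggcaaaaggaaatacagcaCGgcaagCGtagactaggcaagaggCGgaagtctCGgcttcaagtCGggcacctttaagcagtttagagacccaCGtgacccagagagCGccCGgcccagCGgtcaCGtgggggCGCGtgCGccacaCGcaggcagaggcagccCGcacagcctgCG
Kmt2d, chr15:98871206-98871455, minus strand, interval present: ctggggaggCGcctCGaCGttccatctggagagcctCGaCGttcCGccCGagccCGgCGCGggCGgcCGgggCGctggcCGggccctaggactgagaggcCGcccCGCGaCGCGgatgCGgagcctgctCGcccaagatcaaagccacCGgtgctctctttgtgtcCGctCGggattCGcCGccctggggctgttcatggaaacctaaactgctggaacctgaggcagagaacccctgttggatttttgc
Prdm16, chr4:154636874-154637123, minus strand, no interval: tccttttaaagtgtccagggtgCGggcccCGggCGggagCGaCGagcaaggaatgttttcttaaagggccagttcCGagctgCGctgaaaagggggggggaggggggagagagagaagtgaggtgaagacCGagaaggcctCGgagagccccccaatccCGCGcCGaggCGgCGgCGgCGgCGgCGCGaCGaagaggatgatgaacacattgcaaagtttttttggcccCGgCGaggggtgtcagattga
Kdm3a, inner start, chr6:71609140-71609389, minus strand, no interval: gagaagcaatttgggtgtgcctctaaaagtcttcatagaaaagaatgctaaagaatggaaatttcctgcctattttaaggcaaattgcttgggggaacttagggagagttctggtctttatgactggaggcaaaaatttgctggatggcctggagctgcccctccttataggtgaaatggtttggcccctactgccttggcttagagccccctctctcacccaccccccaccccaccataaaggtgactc
In these 250 bases Kmt2c held 48 CpG, Kmt2d 26, Prdm16 22, the inner start of Kdm4c 19, Prdm9 13 and Kdm4a 12. The outer start of Kdm4c and the inner start of Kdm3a held 0.

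Of the 40 genes 35 (87.5%) had a gene-end interval, one that overlaps the 1 kb on either side of an end of the gene span, and so did 47.4% of all protein-coding genes. By role, 21 of 25 writers (84%) and 14 of 15 erasers (93.3%) had one. Their exact binomial 95% intervals, 63.9 to 95.5% and 68.1 to 99.8%, cover only the counting of genes. The genes are a fixed list and not replicates of a role, so these intervals do not compare the roles. Kmt2d, Prdm2, Prdm16, Nsd1 and Kdm4c were the 5 without. Above the median total signal of called regions 27 genes still had a gene-end interval (67.5%, against 32.7% of all genes), and above the upper quartile, 45461.5, 16 did (40%, against 19.6%). The share was thus above that of all genes at each level of signal. The signal itself lay near that of all genes: where present, the highest total signal at the ends had a median of 43954 over the 35 genes and 39334.5 over all genes with one, and the median maximum was 39 in both. Of the 35, 21 lay above the median of all such genes by total signal and 18 by maximum. The 38 gene-end intervals were 777 to 13061 bp wide, with a median of 2846 bp (2663 bp over all genes), and 36 of them contained their own maximum. At 16 of the 35 genes (45.7%, against 40.5% over all genes) a gene-end interval also lay at an end of another gene. The signal of such an interval cannot be assigned to either gene. At Nsd3 and Kdm2a the shared interval was not the one with the highest total. The count is made per interval. It leaves out called regions whose other piece lay at an end of another gene, as at Ehmt1. No test was made of any of these shares, which describe a list of genes within 1 interval list.

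**Figure D1:**
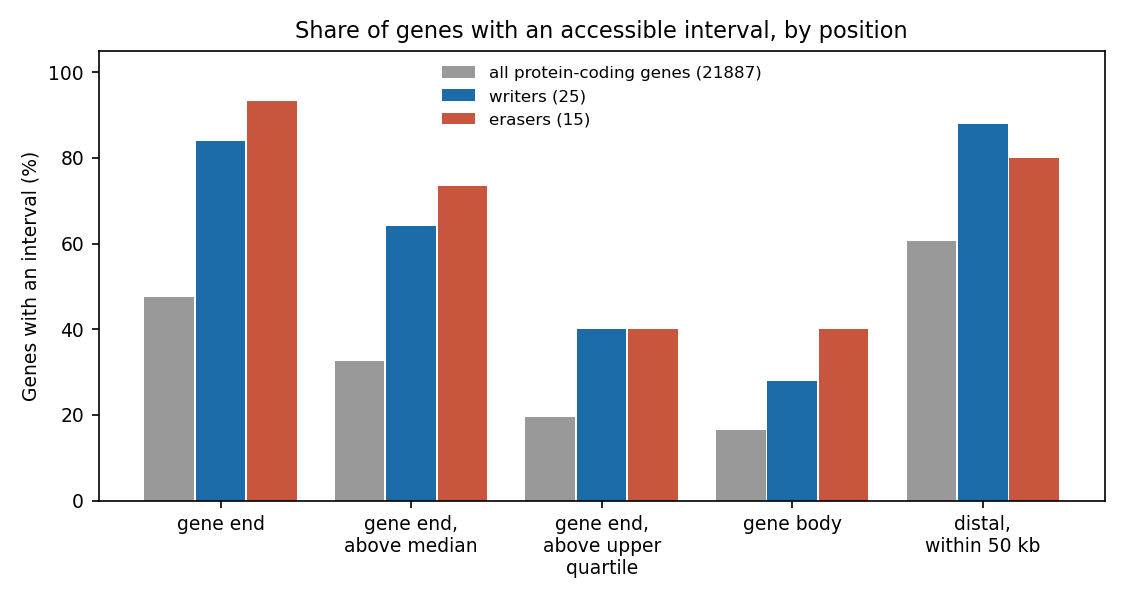
Percentage of genes (y axis) with an accessible interval at either gene end, at an end and above the median or the upper quartile of total signal, inside the gene, or within 50 kb of it, for all 21887 protein-coding genes, 25 writers and 15 erasers. Both roles stand above all genes in each class, and both are at 40% above the upper quartile.

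The share of other genes with a gene-end interval varied with place. Among other genes within 5 Mb of each of the 40, the percentage with a gene-end interval ranged from 18.5 (around Prdm2) to 86.3 (around Kdm2a), with a median of 50.8. Of the 5 genes without one, Prdm2 and Kdm4c had low local percentages (18.5 and 19). The other local percentages were 46.2 at Nsd1, 46.2 at Prdm16 and 56 at Kmt2d. Chromosome 5, where 63.2% of genes had a gene-end interval, carried 5 of the 40 (Kmt2c, Kmt2e, Setd1b, Nsd2 and Kdm2b), all with one. Their median total signal was 79895, against 43059.5 for the genes elsewhere. All genes with an end interval showed the same order, 63850.5 on chromosome 5 and 37859 elsewhere. By maximum the members did not show it, with a median of 38 on chromosome 5 and 39 elsewhere, while all genes had 44 and 38. Outside chromosome 5 the count was 30 of 35. By length, the share was 8 of 8 under 25 kb (43.2% of all genes), 21 of 22 from 25 to 100 kb (56.8%) and 6 of 10 over 100 kb (46.6%), so that 4 of the 5 genes without one were over 100 kb long. The part of position and length in the counts was not tested.

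The H3K4 writers had gene-end intervals at 7 of 8 genes (87.5%, against 47.4% of all genes). At 5 of these the total signal exceeded the upper quartile (62.5% of the 8, against 19.6% of all genes). Setd1b, a catalytic subunit of a SET1 complex, had the highest total signal of the 40 (198953, maximum 38). Its interval was 13061 bp wide, on chromosome 5 from 123129908 to 123142968, reached only 928 bp into the gene and also covered an end of the neighbouring Rhof. Its paralog Setd1a had a total of 50234 and a maximum of 35, in an interval shared with an end of Orai3. Of the MLL genes, Kmt2c, which methylates H3K4 at enhancers, had a total of 79895 and a maximum of 65 at 25496561 to 25500569 on chromosome 5. Kmt2b had 60999 and 46, in an interval shared with Zbtb32, and Kmt2a, the gene broken in MLL leukaemia, 43475 and 47. Setd7, a monomethyltransferase with many non-histone substrates, had 54332 with a low maximum of 27. By maximum, Kmt2c stood at percentile 92.3 of all genes with an end interval and Setd7 at 21.

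Prdm9 had the highest maximum among the writers. This enzyme sets the sites of meiotic recombination and is known for expression in germ cells. Its interval of 2140 bp at 15563003 to 15565142 on chromosome 17 had a maximum of 70, at percentile 95.1, and a total of 31049, at percentile 35. Its maximum lay at -33.5 bp from the outer start (negative distances are upstream, and positions are midpoints), and no other protein-coding gene had an end within 1 kb of the interval. Prdm9 thus had a high maximum over a narrow width, and Setd1b a maximum near the median of 39 over the greatest width. Kmt2e, an MLL family member with no methyltransferase activity of its own, had the second highest total signal among the writers, 114466, with a maximum of 61.

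Kmt2d, the closest relative of Kmt2c, had no interval within 1 kb of either end, but the nearest was only 1202 bp from its upper end. The RefSeq start of Kmt2d lies inside the gene span, at 98871205 on chromosome 15. An interval of 1635 bp lay upstream, its nearest base 36 bp from this start, and another of 3615 bp lay downstream. Both are pieces of the same called region, with a total of 88953 and a maximum of 45 at -1104.5 bp. Kmt2d thus had an interval at its start while having none within 1 kb of its ends.

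H3K9 writers had the lowest share and the lowest median total among the groups of 4 or more members of the list. Of 7, 5 had a gene-end interval (71.4%, against 47.4% of all genes), with a median total of 27630. The next lowest share was 3 of 4, among the KDM4 erasers. Of the H3K9 writers 2 exceeded the median called region (28.6%, against 32.7% of all genes). These 2 were Ehmt1 (total 100082, maximum 38) and Ehmt2 (47886 and 48, shared with Zbtb12), whose products G9a-like protein and G9a dimethylate H3K9 in euchromatin as a heterodimer. The total at Ehmt1 is that of a called region in 2 pieces. The other piece lay 4803 bp outside Ehmt1, at an end of Arrdc1. Setdb1, which trimethylates H3K9 at retroelements, had the second lowest total of the 35 genes, 17169, in an interval of 900 bp, but a maximum of 54. Suv39h2, a writer of pericentromeric heterochromatin, had 18740 and 26 in an interval shared with Dclre1c, and Setdb2 had 27630 and 33, shared with Cab39l and Gm45935. By percentile among genes with an end interval, Setdb1 stood at 4.14 for its total and at 81.3 for its maximum, so its rank depended on which of these was read.

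The other 2 H3K9 genes, both of the PRDM family, had none at the ends. Prdm2 spans 143107391 to 143212769 on chromosome 4 and held 1 interval, of 2406 bp, deep inside the gene (143161430 to 143163835, total 24601, maximum 39), 48934 bp from its upper end and 54039 bp from its lower end. Of 151 other genes within 5 Mb of Prdm2, 18.5% had a gene-end interval, the lowest such share for any of the 40. Prdm16, a regulator of brown fat and of haematopoietic stem cells, was the only one of the 40 with no interval at an end, inside it or within 50 kb, as were 29% of all protein-coding genes. Prdm16 is 321239 bp long, and the nearest interval to its start was 428728 bp away, while the nearest to its lower end was 154647 bp away. Other genes within 5 Mb of Prdm16 had a gene-end interval in 46.2% of cases.

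Among the H3K36 writers 4 of 5 genes had a gene-end interval (80%, against 47.4% of all genes). Setd2, the H3K36 enzyme that travels with elongating RNA polymerase II, had a total of 39115 and a maximum of 44. Nsd2 had 75846 and 38, in an interval shared with Gm52782, Ash1l had 43954 and 34, in an interval shared with Dap3, and Nsd3 had 32278 and 37. A further interval at the upper end of Nsd3 (total 18593, maximum 30) lay 187 bp outside the gene and at an end of Plpp5. The 4 maxima lay close together, between 34 and 44. Nsd1, mutated in Sotos syndrome, had no interval inside it or at its ends. Its nearest one lay 2886 bp from the upper end, at ends of Prelid1 and Rab24, and 6 intervals in all lay within 50 kb of Nsd1.

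Dot1l, the only H3K79 writer, was the gene of the list with the most intervals around it. Its start on chromosome 10 had an interval of 3678 bp (80754710 to 80758387, total 78875, maximum 59) whose maximum lay at -79.5 bp from the start. Inside the gene were 6 further intervals, a number reached by 0.749% of protein-coding genes, and intervals covered 42.8% of its 40361 bp. They came from 4 called regions with maxima from 15 to 42, and the strongest of these (total 166671) had its maximum outside the gene, in a piece that covered ends of Amh, Plekhj1 and Sf3a2. Another 9 intervals lay within 50 kb, a number reached by 3.72% of genes. Around Dot1l 71.4% of other genes within 5 Mb had a gene-end interval.

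The SMYD genes, whose products methylate histones and other proteins, had a gene-end interval at 3 of 3, against 47.4% of all genes. The maxima were low: 30 at Smyd2, 26 at Smyd3 and 24 at Smyd5, all under the median of 39 over all genes with one. Totals were 42644, 22361 and 26207. Smyd3, at 566094 bp the longest gene of the list, also held 8 intervals inside it, with maxima of 12 to 29. The lowest of these is a piece of 15 bp that does not contain its own maximum. In Smyd2 a called region near the lower end, with a total of 91584 but a maximum of 18, had the larger total of its called regions, and the interval at the start the larger maximum.

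All 4 H3K4 erasers had a gene-end interval, where 47.4% of all protein-coding genes did. Kdm1a (LSD1), the founding histone demethylase, had the lowest total of the 35 genes, 16625, close to the lowest value in the whole list, with a maximum of 29. Its paralog Kdm1b had 55679 and 44, in an interval shared with an end of Tpmt. The JmjC genes Kdm5a and Kdm5b had totals of 35460 and 67117 and maxima of 41 and 42, in intervals shared with ends of Ccdc77 and Mgat4e. At Kdm5b the maximum of the called region lay outside the interval at the gene, so that value was not measured at the start. Over these 4 genes totals ranged from 16625 to 67117 and maxima from 29 to 44.

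The KDM4 family, which includes erasers of H3K9 and of H3K36, was kept together as a group, whichever residue each member acts on. It held both the highest maximum of the list and a gene with no gene-end interval. Kdm4b had a maximum of 84 and a total of 120436 in an interval of 6444 bp at 56323387 to 56329830 on chromosome 17, which also covered an end of Uhrf1. Its maximum stood at percentile 99.1. The total is that of a called region in 2 pieces, of which the other, of 2363 bp, lay inside the gene. At its upper end Kdm4b had a further interval with a total of 56775 and a maximum of only 17. Counting the piece of 2363 bp, 6 intervals lay inside the gene, and intervals covered 29.9% of it. Kdm4a followed with a maximum of 68 (total 48993), at -80 bp from its start, and Kdm4d had 39 and 23697 in an interval shared with Cwc15. Kdm4c had none at its ends, yet its inner start carried an interval of 2781 bp (74250837 to 74253617 on chromosome 4) with a maximum of 60 and a total of 44454. The outer start, 8340 bp from that interval, had none.

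The H3K9 erasers Kdm3a and Kdm3b differed in signal. Kdm3a, known for its induction by hypoxia, had a total of 45359 and a maximum of 55, at -23 bp from its outer start, and Kdm3b had 23411 and 26. The inner start of Kdm3a, at 71609139 on chromosome 6, was 22490 bp from the nearest interval.

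The 3 H3K36 erasers all had gene-end intervals, where 47.4% of all protein-coding genes did. Kdm2b recruits a Polycomb repressive complex 1 to CpG islands through its zinc finger, and it is known to make a shorter form that lacks the demethylase domain from an inner start. The interval at its outer starts (122988108 to 122991276 on chromosome 5) had a total of 41375 and a maximum of 19, the lowest of the 35 genes when each is taken at its highest gene-end maximum. The interval at its inner starts (122899114 to 122902281) had a total of 65826 and a maximum of 45, at -25 bp from the nearest start. In Kdm2b the inner starts thus carried the higher interval. Kdm2a had a total of 48690 and a maximum of 39 at its upper end, shared with 9430078G10Rik, 45397 and 49 in an interval inside the gene, and 80639 and 30 at its lower end, in a piece of 777 bp outside the gene that does not contain its own maximum. Kdm8 had 36772 and 32.

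The H3K27 erasers act directly on the mark that PRC2 writes. Kdm6b, which responds to inflammatory and differentiation signals, had a total of 87355 and a maximum of 56 at its upper end, in an interval shared with an end of Dnah2. That total is of a called region in 2 pieces, of which the other, of 1260 bp, lay inside the gene. Counting that piece, 3 intervals lay inside the gene, and intervals covered 46.5% of Kdm6b, the highest share of the list. Kdm7a, which removes H3K9 and H3K27 dimethylation, had 36455 and 36 and no interval inside it.

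**Figure D2:**
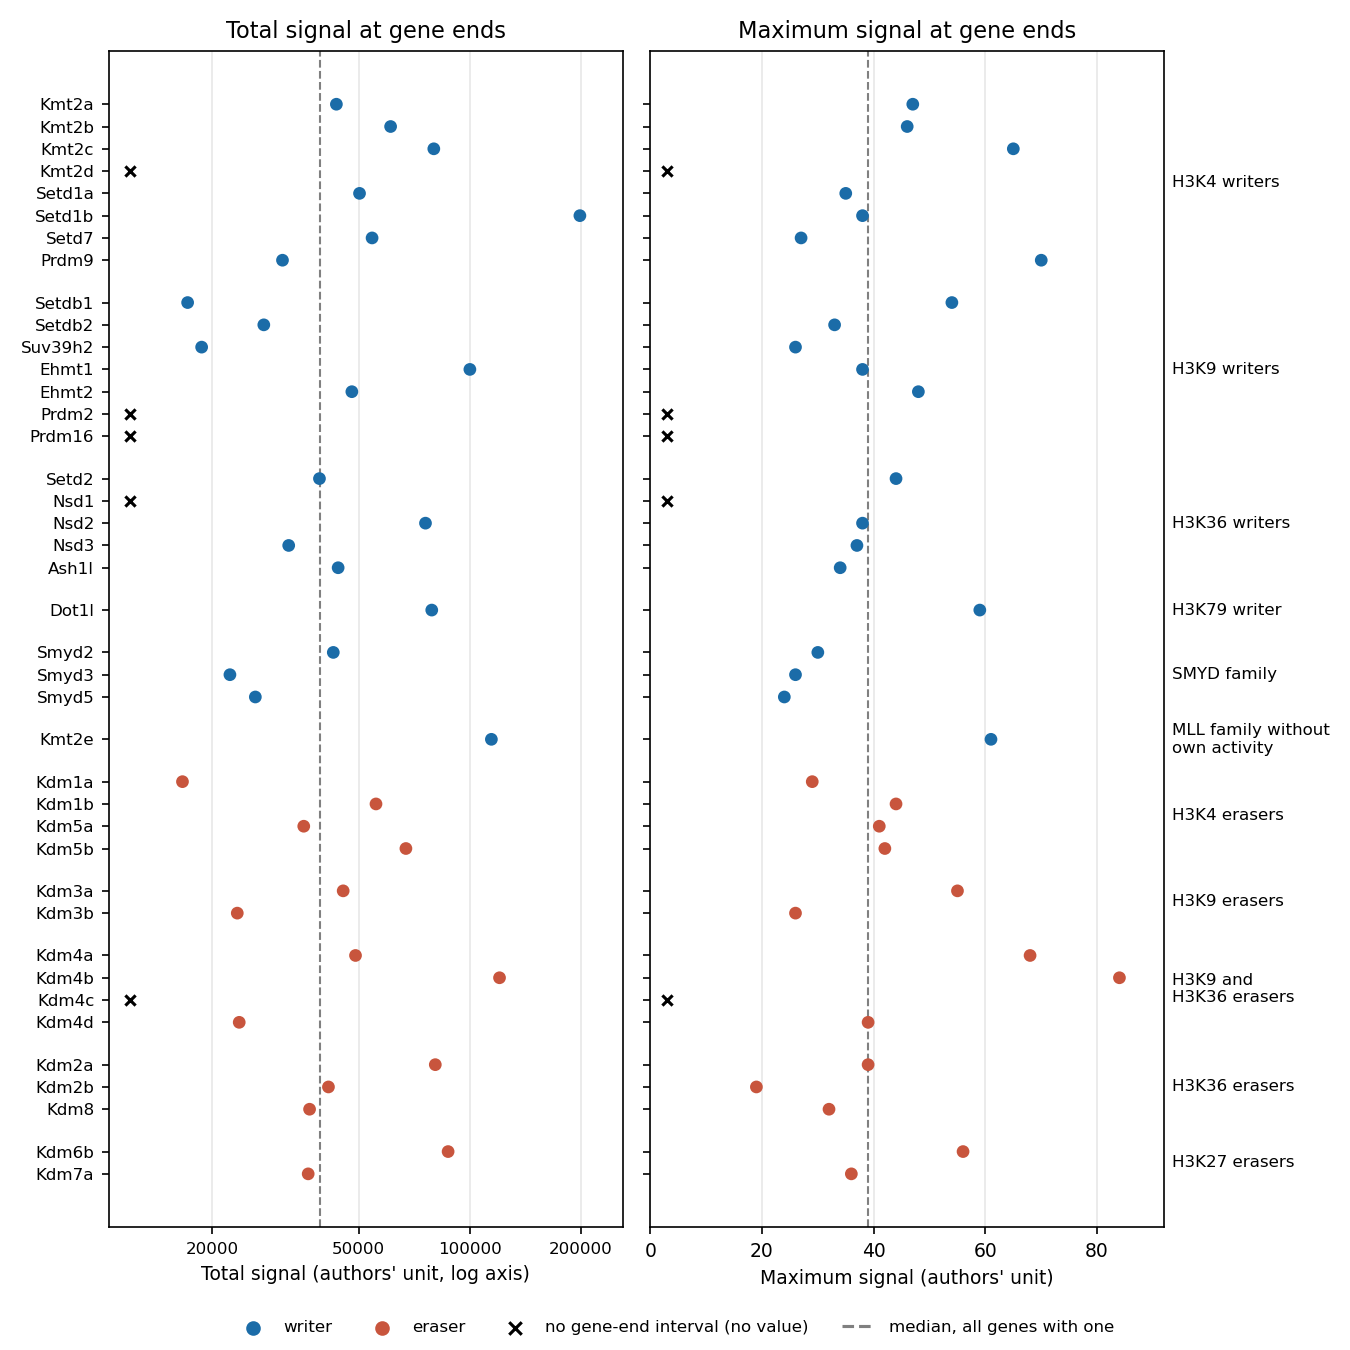
Highest total signal (left, log axis) and highest maximum signal (right) of the intervals within 1 kb of the ends of each gene, in the authors' unit, grouped by target residue. Blue points are writers, red points erasers, crosses genes with no gene-end interval (placed at the left edge, with no value), and dashed lines the medians of all genes with one (39334.5 and 39). Setd1b is highest by total signal and Kdm4b by maximum.

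Inside the gene, away from its ends, 13 of the 40 genes had an interval (32.5%, against 16.6% of all genes). The members of the list are long, with a median of 57309 bp against 17169 bp over all genes. Within length classes the counts were 1 of 8 under 25 kb (7.52% of all genes), 7 of 22 from 25 to 100 kb (25.7%) and 5 of 10 over 100 kb (42.9%), each near the share of all genes of that length. The 38 intervals inside these genes had a median maximum of 24, against 38 for the 38 intervals at the ends. The same contrast over all genes is not given here. Within 50 kb outside the gene, 34 of 40 had an interval (85%, against 60.6%), 121 intervals in all. Of these, 75 (62%) lay at an end of another protein-coding gene. No such share over all genes is given here, so this count describes these intervals only. Prdm2, Prdm16, Setdb2, Kdm1a, Kdm4c and Kdm4d had none within 50 kb.

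**Figure D3:**
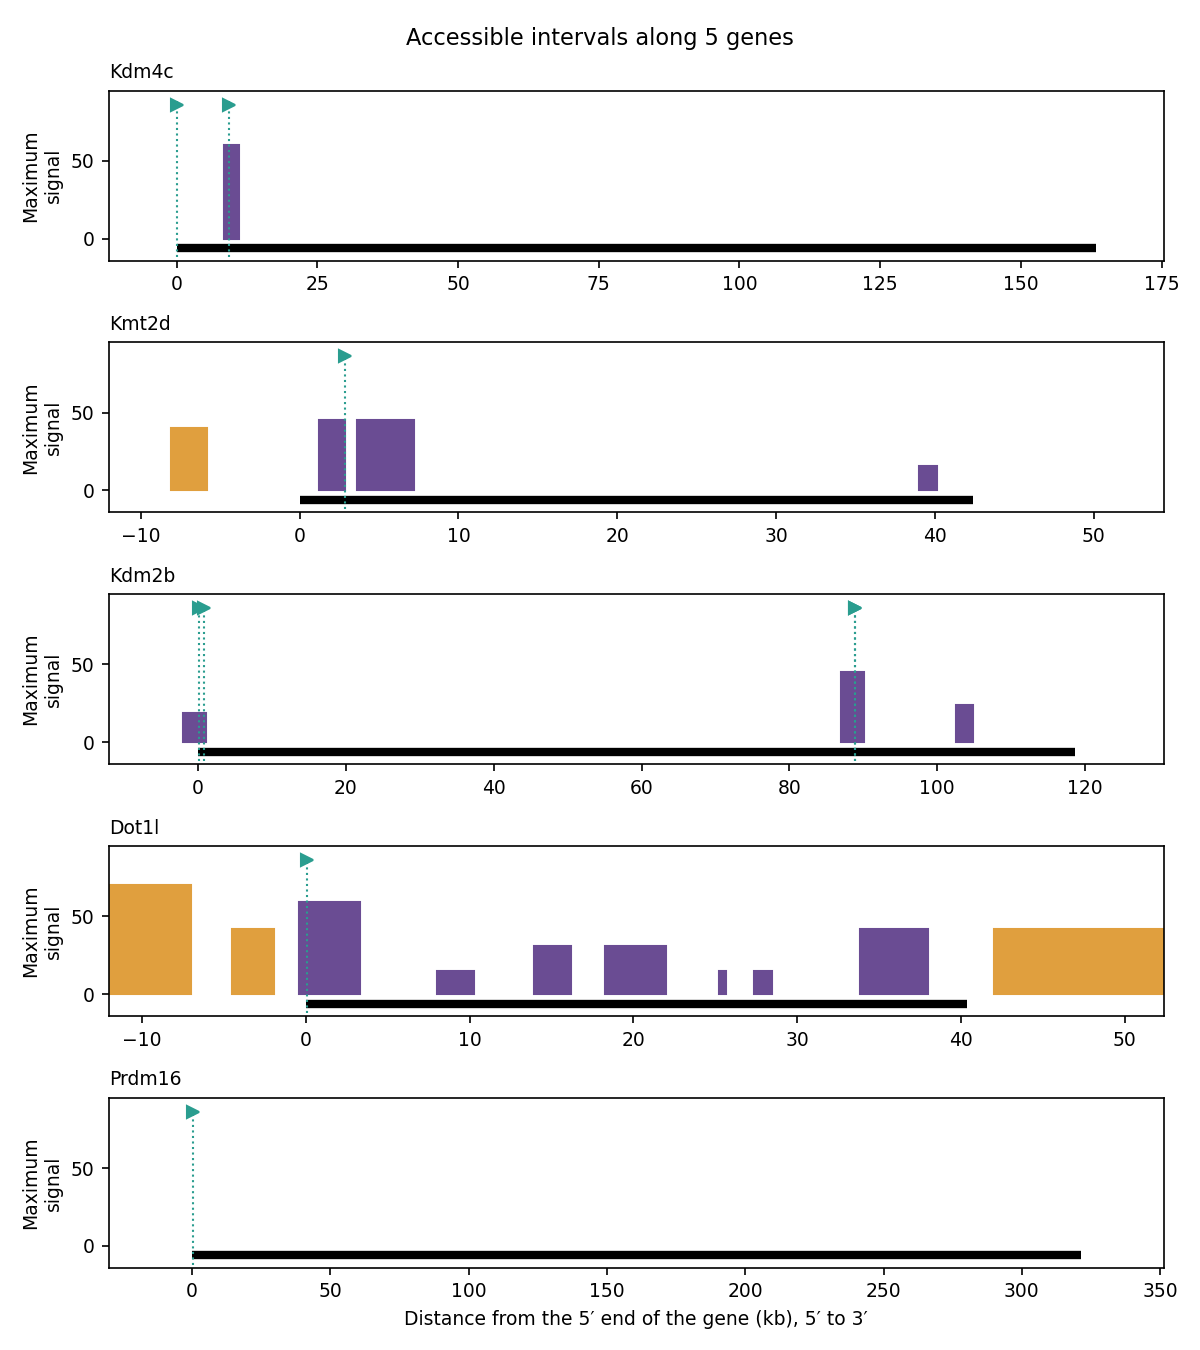
Intervals along Kdm4c, Kmt2d, Kdm2b, Dot1l and Prdm16, each drawn 5′ to 3′ with the distance from the 5′ end of the gene in kb on the x axis and the maximum signal of the called region on the y axis. Black bars are gene spans, green dotted lines with arrowheads RefSeq starts, purple boxes intervals at or in the gene and orange boxes intervals beside it. Among intervals at or in the gene, Kdm4c and Kdm2b carry their highest at an inner start, Dot1l is covered along its length and Prdm16 has none.

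Counted at RefSeq starts in place of gene ends, 25 of the 26 genes with a start entry had an interval within 1 kb (96.2%, against 46.9% of all genes with an entry), with Prdm16 the exception. Kmt2b, Setd1b, Prdm2, Nsd1, Nsd2, Nsd3, Ash1l, Smyd3, Kmt2e, Kdm5a, Kdm3b, Kdm4b, Kdm2a and Kdm6b had no entry. A start was called CpG-rich where the 300 bp from 250 before it to 50 after it had an observed-to-expected CpG ratio of at least 0.6 and at least 50% G and C. Of the 34 starts 30 were CpG-rich, and 29 of these had an interval (96.7%), where 76.5% of all CpG-rich starts did. Of the 4 others 2 had one, Smyd5 and the inner start of Prdm9, where 21.3% of all such starts did. Both starts without CpG, the outer one of Kdm4c and the inner one of Kdm3a, had none. The start of Prdm16, with 24 CpG in the 300 bp and a ratio of 0.94, was the CpG-rich exception. Starts of 1 gene can share an interval, as in Ehmt2, Kdm2b, Kdm3a and Prdm9, so the 34 starts are fewer than 34 separate observations.

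**Figure D4:**
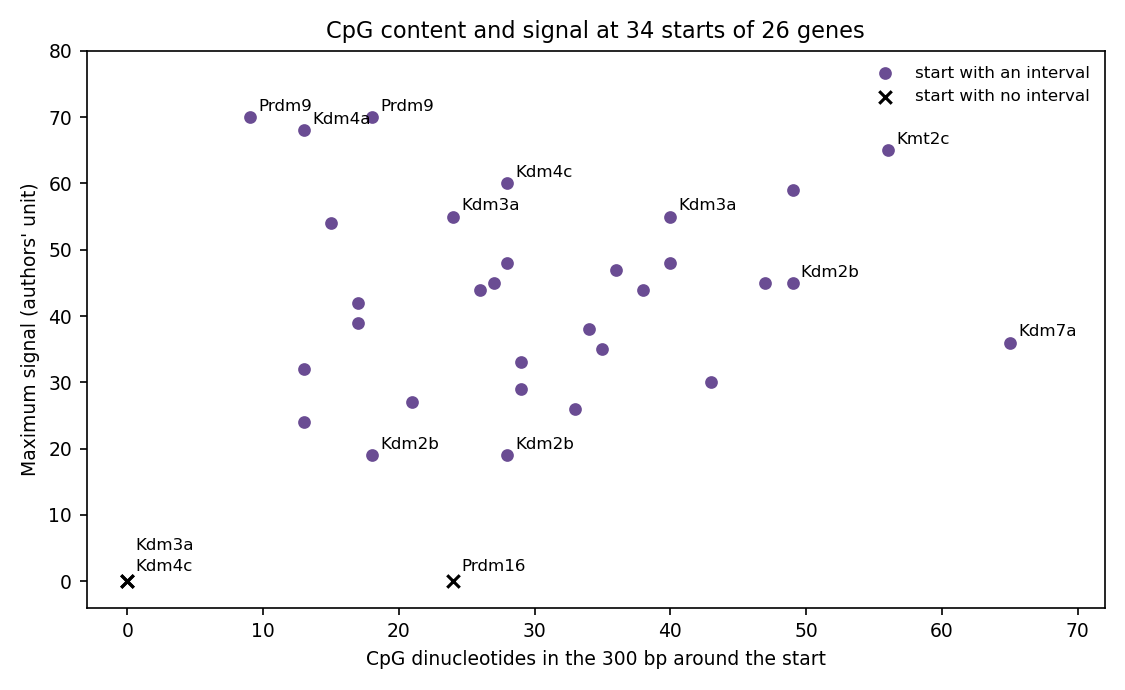
CpG dinucleotides in the 300 bp around each of 34 RefSeq starts of 26 genes (x axis) against the highest maximum signal of an interval within 1 kb (y axis, authors' unit). Crosses at 0 are starts with no interval: those of Kdm3a and Kdm4c have 0 CpG and that of Prdm16 has 24, while Kdm7a, with 65, has a maximum of 36.

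The start with the most CpG did not have the highest maximum signal. Kdm7a held the most CpG, 65, with a maximum of 36, and Kdm4a held 13 with a maximum of 68. Other starts went the other way, as Kmt2c with 56 and a maximum of 65, and Smyd5 with 13 and a maximum of 24. An association over all starts of the list was not tested. The maximum lay within 250 bp of the start at 20 of the 30 starts whose interval contained its own maximum (66.7%, against 68.4% over all genes), and the median distance was 92.75 bp (120 bp over all genes). It lay downstream of the start at 5 of 30 (16.7%, against 32.7%), with Setd7 the farthest, 692.5 bp downstream.

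Short motifs were searched on both strands of the same 300 bp, none of which contains another. GGGCGG, the GC box, was present at 25 of 34 starts (73.5%, against 46.2% of all starts and 76.8% of CpG-rich ones). CCAAT was present at 12 (35.3% against 38.2%). The E-box CACGTG, bound by Myc and Max, was present at 3 starts (8.82% against 7.84%), both starts of Ehmt2 and the inner start of Kdm4c, in whose printed sequence its central CG is in capitals. The AP-1 motif TGACTCA was present at 3 (8.82% against 4.66%), of Kdm3a and Kdm4a. TGACGTCA was found at Suv39h2 only (2.94% against 2.23%), GCGCATGC at Smyd2 only (2.94% against 3.52%), and CCGGAAGT at 0 starts (5.15% of all starts). Of these 34 starts 30 were CpG-rich. Among all CpG-rich starts the shares were 36.1% for CCAAT, 11.6% for CACGTG and 2.35% for TGACTCA. They were 3.74% for TGACGTCA, 6.45% for GCGCATGC and 9.07% for CCGGAAGT. Set against these, the members' shares of CACGTG and TGACGTCA were lower, while against all starts they were higher. A match describes letters in this window and no binding was measured.

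The partners of these enzymes were described by lists of 35 genes, of which 33 had a gene-end interval, with a median total of 59571, where 47.4% of all protein-coding genes had one, with a median of 39334.5. Of 11 genes for subunits and partners of the MLL and SET1 complexes 9 had one, led by Wdr5 (119049), Men1 (93229) and Paxip1 (75413), and Ash2l and Dpy30, which stimulate the catalytic subunits, each had 1 interval inside the gene. All 7 partners of LSD1 in the CoREST complex had one, led by Rcor2 (193583), Hmg20b (175136) and Rcor3 (68346), and Phf21a had the lowest, 15751. All 8 genes for partners and readers of H3K9 methylation had one, led by the corepressor Trim28 (101157), by Wiz (92499) and by the heterochromatin protein gene Cbx3 (77424). All 6 partners of Dot1l had one, led by Mllt6 (280999), Mllt1 (88983) and Mllt10 (65082). The H4K20 writers Kmt5a (59571), Kmt5b (66125) and Kmt5c (28761) did too.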

How the data were processed

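Accessibility was measured by ATAC-seq on whole cells, per the labels' protocols. The submitters' processing notes name Bowtie2 2.2.9, deepTools, the peak caller SEACR and mm10. Not given in the sources used here: calling threshold, control, duplicate handling, transposase shift, how replicates were combined, and depth. The deposited list has 6 columns and no header. The fourth is read as total signal, a score in the authors' unit, and the fifth as maximum signal as deposited, its normalization unstated. Of the called regions 2148 were deposited in more than 1 piece, and 4474 intervals do not contain their own maximum.

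Genes and starts came from RefSeq tables on GRCm38.p6, which give spans, not exons. An interval within 1000 bp of an end (at least 1 bp of overlap) was a gene-end interval. Otherwise it was inside the gene, or distal within 50 kb. For each gene the highest value was used. The members and lists were chosen with earlier results of these data known. The rule for named genes took all members by residue, the leaders of each partner list, and promoters of the 4 highest maxima and of the first 3 genes without a gene-end interval, of which Nsd1 has no entry. No set test was made. Python 3.11.15, numpy 2.4.6, pandas 2.3.3, scipy 1.17.1 and matplotlib 3.10.9 were used. The interval lookup was tested on simulated data and placed 400 of 400 genes correctly.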

Additional observations from a re-analysis of the deposited data

How the results depend on the processing

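No paired analysis was possible because the interval list has no value per replicate, and leaving out a replicate was not possible for the same reason. Shares stayed above those of all genes in every alternative run: gene-end windows of 500 or 2500 bp, at least 200 bp of overlap, intervals that contain their own maximum, the 2 stricter levels of signal, an interval within 1 kb of a RefSeq start only, and distal distances of 25 and 100 kb. Values beyond the 95% exact binomial interval of the reported one (for the median, its order-statistic interval) were as follows. That interval serves here only as a yardstick for the size of a change, not as a test. Above the median total signal the gene-end share was 67.5%. Above the upper quartile the shares were 40% for all members, writers and erasers alike at gene ends, 15% inside the gene and 62.5% within 50 kb, and the median total was 77360.5. With RefSeq starts only, where 14 members have no entry, the shares were 96.2% for all and 100% for erasers. The other alternatives stayed within the interval. Inside its interval, but in the reverse order to all genes, was the median total signal of the members above the median called region, 50234 against 52062, so the order of the reported medians depends on the threshold. With 15 to 25 genes in a role, 1 gene moves a share by several percentage points.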

Other observations

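Other genes of the same enzyme families, listed apart from the members, were counted in the same way. Of 18 autosomal genes with SET or JmjC domains 12 had one (66.7%, against 47.4% of all protein-coding genes), with a median total signal of 27157.5. Jmjd6, a hydroxylase, led with a total of 109916 and a maximum of 90, followed by Setd5 (86124) and Jmjd1c (66896). Setd4, Setmar, Smyd1, Prdm6, Prdm8 and Prdm12 had none. Smyd1 is a gene of striated muscle, and Prdm8 and Prdm12 are genes of the nervous system. Prdm8 held 2 intervals inside the gene.

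The X-linked paralogs Kdm5c, Kdm6a and Phf8 each had a gene-end interval, on a chromosome where 11.9% of protein-coding genes did. Total signals were low, 18636 at Kdm5c, 24711 at Kdm6a and 21926 at Phf8, with maxima of 38, 38 and 29. The median total over all genes with an interval was 39334.5. The X-linked H3K9 writer Suv39h1 had none, and neither had the Y-linked Kdm5d and Uty, on a chromosome where no protein-coding gene had one. Differences between these lists and the members were not tested.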
